A study of Rattus norvegicus with 6 samples.

Results

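Genes of myeloid lectins, inhibitory and adhesion receptors and their signalling partners were measured in whole liver of 6 male Sprague-Dawley (Crl:CD(SD)) rats, an outbred stock. The 10 genes were chosen from earlier results of the same comparison, in which their differences were known, and every probe that carried their RefSeq accession was read: Clec7a, Clec12a, Clec4a2, Lilrb4, Tyrobp, Itgam, Cd14, Lyz2, Bcl2a1 and Blnk. All 10 were on the array, with 13 probes out of 15639 genes with a usable named probe, and all 10 were among the 11939 genes tested, which were well above background on at least 3 of 6 arrays. Of the rats, 3 were dosed with carbon tetrachloride (CCl4), 100 mg/kg/day, and 3 with corn oil, with a single array per animal. CCl4 damages hepatocytes once their enzymes have activated it, which makes it a common agent for experimental liver fibrosis. The animals were 5 weeks old when purchased. The labels disagree on exposure, with 28 days in one field and 9 weeks in another. The first slide held CCl4 replicate 1 with the 3 corn oil arrays, and the second slide held CCl4 replicates 2 and 3.

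Myeloid cells of the liver, which are resident Kupffer cells and recruited monocytes, macrophages and neutrophils, read their surroundings through surface lectins and immunoglobulin-type receptors. Receptors that activate pass their signal through a tyrosine motif called ITAM, either their own or that of the adapter encoded by Tyrobp, to the kinase SYK and on to adapters such as BLNK. Receptors of the opposing kind, such as those of Clec12a and Lilrb4, carry an inhibitory motif called ITIM, which recruits phosphatases that end the signal. In injured liver such genes are known from macrophages that enter from the blood, take up dead cells and line scars.

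Of the 10 genes, 9 were higher in all 3 CCl4 livers than in any corn oil liver, and Cd14 was the exception. Differences ran between -0.69 for Cd14 and 3.49 for Clec7a, with a median of 1.19 on the log2 scale, where 1 is a doubling, and the value of Clec7a rests on corn oil signals near background. Among probes measured in both groups Lilrb4 stood highest, at 2.99, and Itgam next, at 1.99, while Clec7a, measured in CCl4 rats only, has no settled place. Blnk, Clec4a2, Bcl2a1, Clec12a and Lyz2 lay close together near a doubling. Tyrobp, at 1.38-fold, had the smallest difference of the 9. All values are log2 signals relative to the array's 75th percentile, and means are given ± SD over 3 rats. Because the genes were chosen on this comparison, their differences are a description and no test is given. For orientation, the median difference of all 11939 genes was -0.05, 3.12% of them had a difference above 1, 27.4% had groups that did not overlap and 11.5% were higher in CCl4 without overlap. At an adjusted p below 0.05 in limma, 0.637% of all genes changed. In whole liver, more or fewer cells of a type and more or less RNA per cell cannot be told apart.

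**Figure D1:**
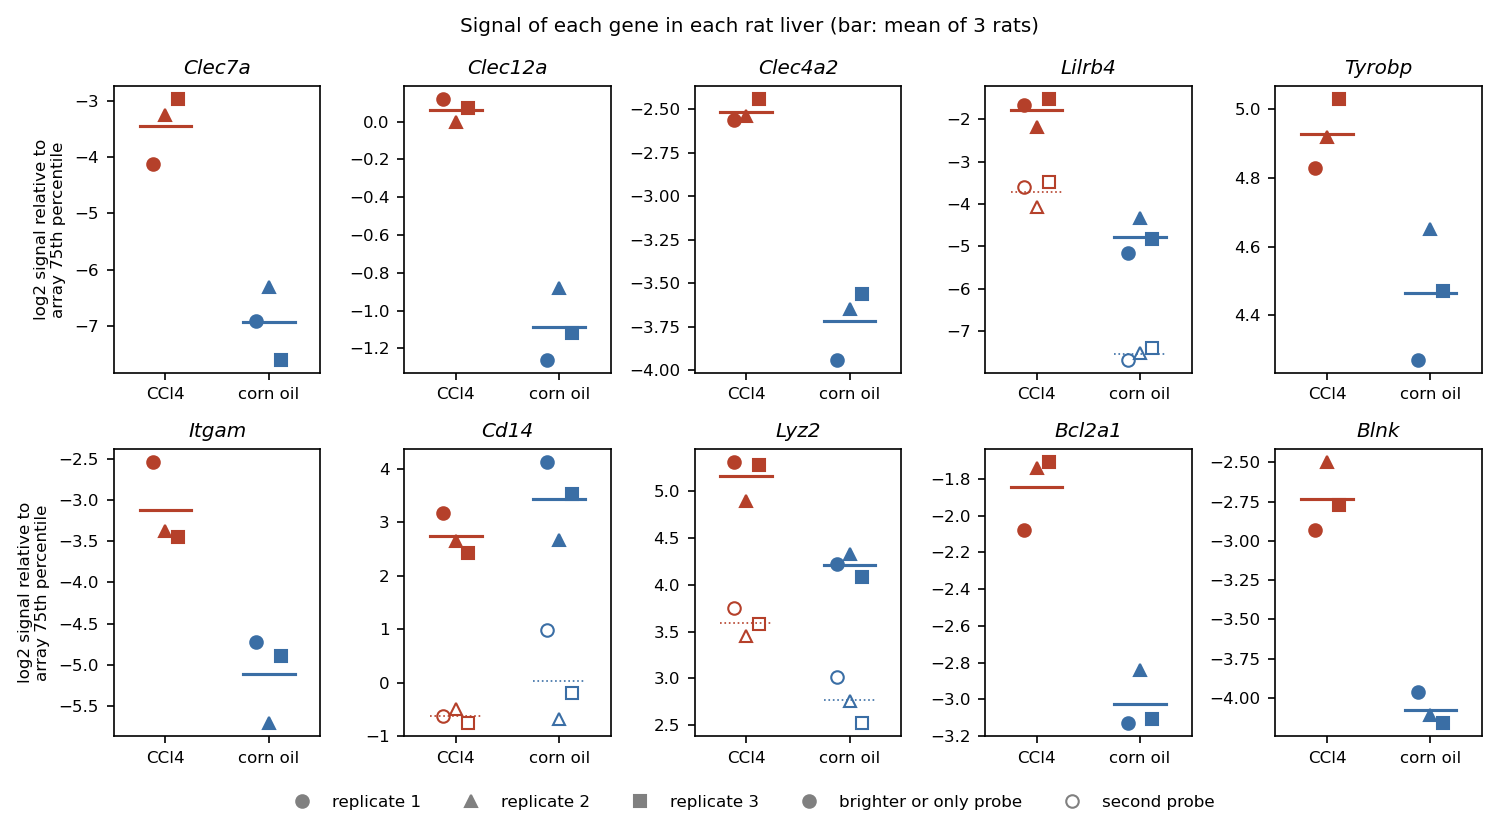
Each panel shows 1 gene, with log2 signal relative to the array's 75th percentile on the vertical axis, CCl4 rats at left in red and corn oil rats at right in blue, a symbol shape per replicate and a bar at the mean of 3 rats. Filled symbols are the brighter or only probe and open symbols a second probe; the groups are apart in every panel but Cd14, where corn oil replicate 1 is highest on both probes.

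Clec7a encodes Dectin-1, a lectin that binds fungal beta-glucans and signals through SYK with a motif of its own. Its probe was at -4.13, -3.25 and -2.97 in CCl4 rats, against -6.91, -6.30 and -7.60 in corn oil rats. The probe was well above background on all 3 CCl4 arrays and on 0 of the 3 corn oil arrays. The measured means were -3.45 ± 0.61 in CCl4 and -6.94 ± 0.65 in corn oil, but the corn oil value carries only an upper limit. Each corn oil array was then set at the higher of its own signal and the lowest signal that counted as well above background there. On that setting Clec7a was at least 4.27-fold higher in CCl4. The lowest signal was taken over all probes of an array, so the limit for this probe may be higher and the fold smaller. CCl4 replicate 1 was the lowest of its group and the only one on the slide that held the corn oil arrays.

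Clec12a encodes an inhibitory lectin that, in mouse and human, senses crystals released by dying cells. It was at 0.12, 0.00 and 0.07 in CCl4 rats, against -1.26, -0.88 and -1.12 in corn oil rats, a 2.22-fold difference between means of 0.07 ± 0.06 in CCl4 and -1.09 ± 0.20. in corn oil The 3 CCl4 rats were nearly alike, and the corn oil rats spread more widely. Clec4a2, a lectin of the dendritic cell immunoreceptor group, was at -2.56, -2.54 and -2.44 in CCl4 rats, against -3.94, -3.65 and -3.56 in corn oil rats. That is 2.30-fold, with means of -2.51 ± 0.06 in CCl4 and -3.71 ± 0.20. in corn oil In both genes the gap between the lowest CCl4 rat and the highest corn oil rat, 0.88 for Clec12a and 1.00 for Clec4a2, was several times the SD of either group.

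Lilrb4 encodes an inhibitory immunoglobulin-type receptor of myeloid cells, and it had 2 probes. The brighter one was at -1.67, -2.17 and -1.52 in CCl4 rats, against -5.15, -4.34 and -4.83 in corn oil rats, a 7.93-fold difference (means -1.79 ± 0.34 in CCl4 and -4.77 ± 0.41 in corn oil). The second probe was at -3.61, -4.06 and -3.49 in CCl4 rats, against -7.68, -7.53 and -7.40 in corn oil rats. That second signal cleared background on 0 of 3 corn oil arrays, so this probe gives only a limit. Lilrb4 was at least 3.54-fold higher on the setting used for Clec7a, which has the same reservation. Both probes ordered the CCl4 rats alike, with replicate 3 highest and replicate 2 lowest. Probes of this receptor family may not tell its members apart.

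Tyrobp, the ITAM adapter that serves TREM2 and several other receptors, was at 4.83, 4.92 and 5.03 in CCl4 rats, against 4.27, 4.65 and 4.47 in corn oil rats. The groups were apart by 0.18, about the SD of the corn oil rats (means 4.93 ± 0.10 in CCl4 and 4.46 ± 0.19 in corn oil). Blnk encodes an adapter that SYK phosphorylates, best known from B cells and also used by macrophages. It was at -2.93, -2.50 and -2.77 in CCl4 rats, against -3.96, -4.11 and -4.16 in corn oil rats. The 2.53-fold difference (means -2.73 ± 0.22 in CCl4 and -4.08 ± 0.10 in corn oil) left a gap of 1.03 between the groups.

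Itgam encodes the alpha chain of complement receptor 3, which pairs with the beta chain of Itgb2 to bind complement-coated particles. Its probe was at -2.54, -3.37 and -3.45 in CCl4 rats, against -4.72, -5.71 and -4.89 in corn oil rats, a 3.97-fold difference (means -3.12 ± 0.51 in CCl4 and -5.11 ± 0.53 in corn oil). It was well above background on all 3 CCl4 arrays and on 2 of 3 corn oil arrays. Here CCl4 replicate 1 was the highest, the reverse of its place for Clec7a, Clec4a2, Tyrobp, Bcl2a1 and Blnk, where it was the lowest CCl4 rat.

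Lyz2 encodes the lysozyme of macrophages, which cuts bacterial cell walls. Its brighter probe was at 5.31, 4.90 and 5.28 in CCl4 rats, against 4.22, 4.33 and 4.08 in corn oil rats, a 1.94-fold difference. The second probe gave 3.75, 3.45 and 3.58 in CCl4 rats, against 3.01, 2.76 and 2.52 in corn oil rats, a 1.78-fold difference. Neither probe overlapped between groups, and CCl4 replicate 2 was lowest on both. The RefSeq table lists a neighbouring lysozyme gene, Lyc2, whose older name was Lyz2, and no probe carried its accession, so signal from that copy cannot be told apart here. Bcl2a1, a BCL2 family gene that keeps activated leukocytes alive, was at -2.08, -1.74 and -1.71 in CCl4 rats, against -3.13, -2.84 and -3.11 in corn oil rats. Its 2.27-fold difference lay between means of -1.84 ± 0.21 in CCl4 and -3.03 ± 0.16. in corn oil

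Cd14, the co-receptor that hands bacterial endotoxin to TLR4, did not follow the others. Its brighter probe was at 3.17, 2.64 and 2.42 in CCl4 rats, against 4.12, 2.67 and 3.53 in corn oil rats. The second probe was at -0.63, -0.49 and -0.76 in CCl4 rats, against 0.98, -0.69 and -0.20 in corn oil rats. The means differed by -0.69 and -0.66 on these probes, with overlap on both, and corn oil replicate 1 was the highest rat and corn oil replicate 2 the lowest of its group on each. The SD on the brighter and the second probe was 0.38 and 0.13 in CCl4, against 0.73 and 0.86 in corn oil, so the spread among the vehicle rats was as large as the difference. Without corn oil replicate 1 the difference was -0.36, without corn oil replicate 2 it was -1.08, and with CCl4 replicate 1 alone against the 3 corn oil rats it was -0.27.

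**Figure D2:**
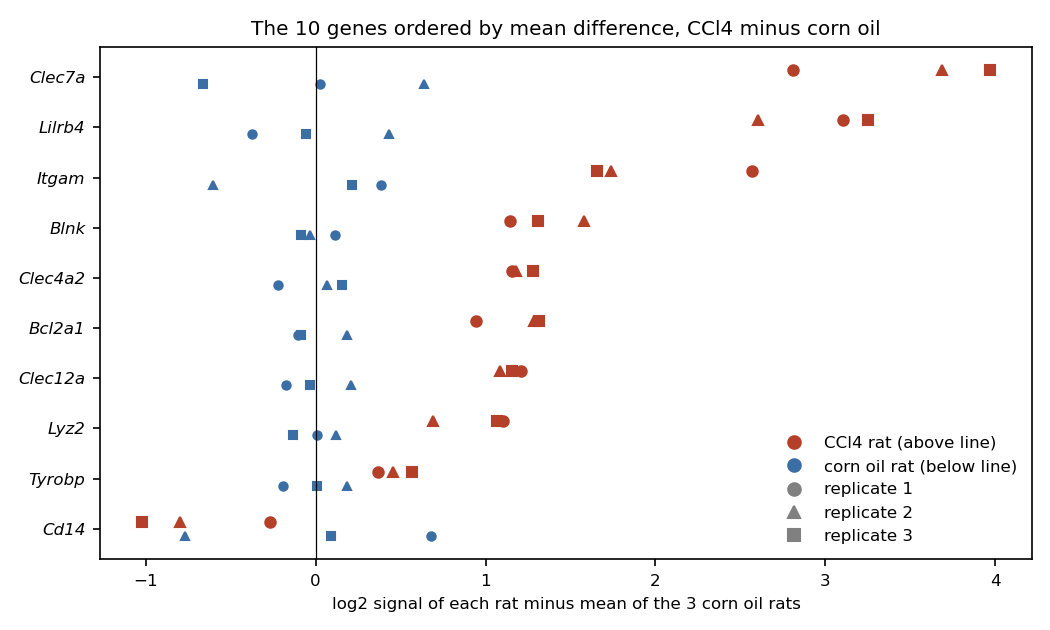
For each gene, named on the vertical axis, the horizontal axis gives each rat's log2 signal minus the mean of the 3 corn oil rats, with CCl4 rats in red just above the line and corn oil rats in blue just below it. Red and blue are apart for 9 genes and overlap for Cd14, and for Clec7a and Itgam CCl4 replicate 1 lies away from the other CCl4 rats on opposite sides.

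Taken rat by rat, the median over the 10 genes was 1.15 in CCl4 replicate 1, 1.23 in CCl4 replicate 2 and 1.29 in CCl4 replicate 3, each relative to the corn oil mean, which restates the values that chose the genes. The value within the first slide, which rests on CCl4 replicate 1, was 2.81 for Clec7a, 3.10 for Lilrb4, 2.57 for Itgam, 1.2 for Clec12a, 1.15 for Clec4a2, 1.14 for Blnk, 1.1 for Lyz2, 0.94 for Bcl2a1 and 0.37 for Tyrobp. The sign of these 9 was fixed there in advance, as each was higher in CCl4 replicate 1 than in any corn oil rat. A single CCl4 array carries no spread between animals. Under normexp background correction with an offset of 50, which compresses dim signals, the values were 0.75 for Clec7a, 1.41 for Lilrb4, 0.75 for Itgam, 0.55 for Clec4a2, 0.73 for Bcl2a1 and 0.72 for Blnk. Clec12a was then at 0.93, Lyz2 at 0.90 and Tyrobp at 0.50, so the brighter probes moved less. The pooled SD within groups had a median of 0.18 over the 10 genes and 0.19 over all genes tested, with 0.63 for Clec7a, 0.58 for Cd14 and 0.52 for Itgam at the upper end.

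The start regions of these genes were read because myeloid genes are known as targets of the transcription factor PU.1, encoded by Spi1. RefSeq windows of 300 bases, 250 before to 50 after the start (GRCr8), were available for 9 genes, and Tyrobp had no entry. The PU.1 core GAGGAA, on either strand, occurred in 6 of the 9 windows (Clec12a, Lilrb4, Itgam, Cd14, Lyz2 and Bcl2a1), against 27.6% of 33469 windows in the table. Cd14, which was not higher in CCl4, is among these 6, whereas Clec7a, Clec4a2 and Blnk, which were higher, had no core. The C/EBP motif TTGCNNAA occurred in 3 of 9 (10.6% of all windows), the AP-1 motif TGANTCA in 2 of 9 (7.33%) and the RUNX motif TGTGGT in 4 of 9 (17.3%), each on either strand. The AP-1 motif can read the same on both strands, so its matches in Clec12a and Bcl2a1 lie on both strands at the same bases, and matches of different motifs did not overlap. The 4 windows with at least 2 PU.1 cores are printed below with Clec7a, a lectin of the same cluster as Clec12a with no such core, and capitals mark GAGGAA or its reverse complement. They are chr4:164483912-164484211 on the plus strand for Clec12a, chr1:192089342-192089641 on the plus strand for Itgam, chr8:98596556-98596855 on the plus strand for Bcl2a1, chr18:28611109-28611408 on the minus strand for Cd14 and chr4:164599778-164600077 on the minus strand for Clec7a.
Clec12a: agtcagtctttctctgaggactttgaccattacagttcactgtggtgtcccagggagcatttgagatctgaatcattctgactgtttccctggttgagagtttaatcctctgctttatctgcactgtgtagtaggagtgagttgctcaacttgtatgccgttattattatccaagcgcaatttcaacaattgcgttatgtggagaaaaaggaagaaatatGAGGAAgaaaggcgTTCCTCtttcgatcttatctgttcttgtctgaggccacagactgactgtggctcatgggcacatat
Itgam: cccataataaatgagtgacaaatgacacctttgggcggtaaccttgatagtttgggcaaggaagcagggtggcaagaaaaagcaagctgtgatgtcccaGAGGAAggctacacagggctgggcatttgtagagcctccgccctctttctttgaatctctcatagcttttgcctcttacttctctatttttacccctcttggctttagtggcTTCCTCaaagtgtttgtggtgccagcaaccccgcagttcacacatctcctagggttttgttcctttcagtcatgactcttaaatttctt
Bcl2a1: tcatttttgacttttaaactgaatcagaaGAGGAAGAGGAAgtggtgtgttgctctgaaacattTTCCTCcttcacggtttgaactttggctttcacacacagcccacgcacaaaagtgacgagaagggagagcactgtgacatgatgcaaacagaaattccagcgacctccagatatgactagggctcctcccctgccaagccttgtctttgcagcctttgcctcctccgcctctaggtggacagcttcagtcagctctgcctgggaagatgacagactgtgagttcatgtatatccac
Cd14: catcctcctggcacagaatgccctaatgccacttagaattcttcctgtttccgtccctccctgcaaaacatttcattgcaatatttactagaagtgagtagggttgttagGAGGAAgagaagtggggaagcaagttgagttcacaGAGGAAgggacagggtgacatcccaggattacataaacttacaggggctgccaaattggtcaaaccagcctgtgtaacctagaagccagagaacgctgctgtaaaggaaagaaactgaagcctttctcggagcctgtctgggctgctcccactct
Clec7a: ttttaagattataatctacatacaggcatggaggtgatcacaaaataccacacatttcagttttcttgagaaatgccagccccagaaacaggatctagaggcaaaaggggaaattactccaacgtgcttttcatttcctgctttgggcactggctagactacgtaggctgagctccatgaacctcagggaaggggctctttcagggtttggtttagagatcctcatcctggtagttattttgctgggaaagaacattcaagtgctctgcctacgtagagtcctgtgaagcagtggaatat
Counted from the start, the cores of Clec12a begin at -30 and, in the other orientation, at -16, whereas those of Bcl2a1 begin at -221, -215 and, in the other orientation, -186. Cd14 has 2 cores in the same orientation, at -140 and -105. A match of letters is not a binding site, and binding was not measured here. Spi1 itself was at -2.57 ± 0.11 in CCl4 and -2.86 ± 0.26 in corn oil, a difference of 0.29 ± 0.16 (SE, n = 3 per group, limma adjusted p = 0.343).

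Clec12a and Clec7a lie in the same lectin cluster on the rat genome, with 5 protein-coding genes between them. Of these 5, 4 were tested and 0 passed the threshold. Clec12b differed by -0.35, Clec9a by -0.28 on its brighter probe and 0.42 on the other, and Clec1b by -0.19, and Clec1a was at 0.06 (limma adjusted p = 0.208 to 0.863). Olr1, the gene on the far side of Clec7a, encodes a lectin-like receptor for oxidised LDL and had the largest fitted difference of the lectins on the list. It was at -2.33, -2.25 and -2.32 in CCl4 rats, against -6.23, -4.42 and -6.81 in corn oil rats, a fitted difference of 3.52 ± 0.58 (SE, n = 3 per group) that missed the threshold of 0.05 (limma adjusted p = 0.0618). Of the corn oil arrays only replicate 2 was well above background for Olr1, so the size rests on signals near background. Olr1 was at 2.39 on its other probe, at 1.17 with normexp (adjusted p = 0.0154), and at 3.52 with a variance trend (adjusted p = 0.0439). Without corn oil replicate 2 the fit gave an adjusted p of 0.00473 for Olr1, but no corn oil array well above background remained, so no size is given. Next to Clec4a2, its relative Clec4a3 differed by 0.65 (adjusted p = 0.0725) and Clec4a1 by 0.22 (adjusted p = 0.444), while Clec4a was at -0.16 (adjusted p = 0.864). Clec4d and Clec4e, activating lectins of that cluster, were not well above background on any array.

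**Figure D3:**
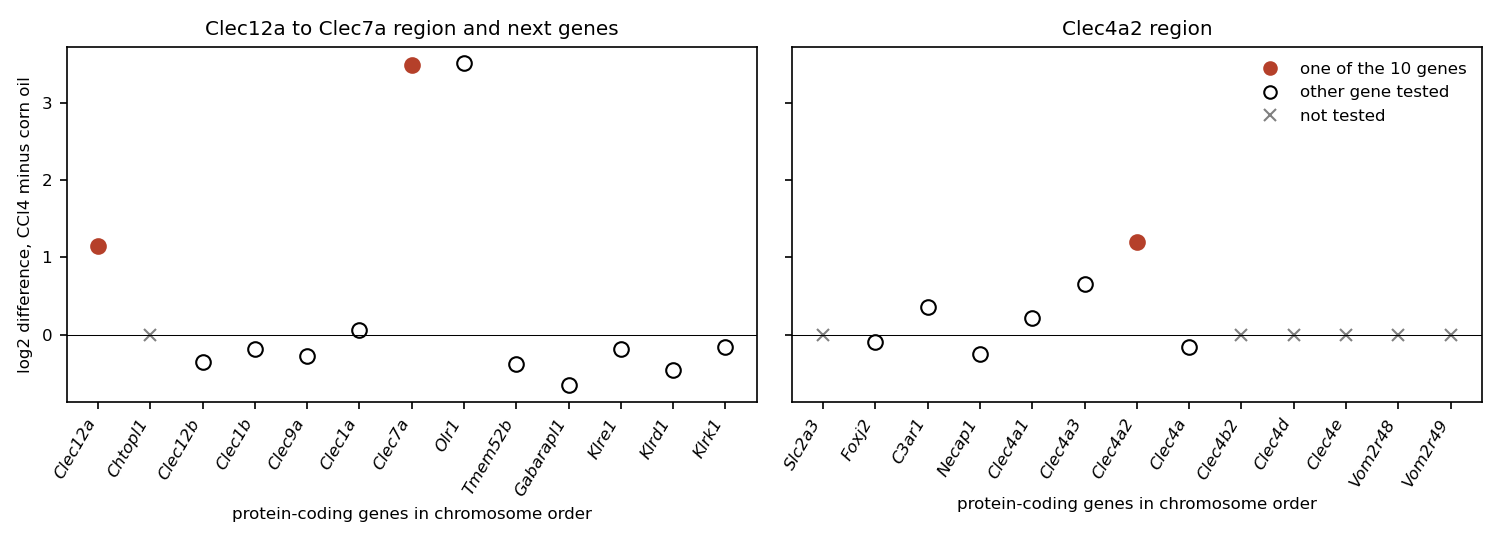
The vertical axis gives the log2 difference, CCl4 minus corn oil, for protein-coding genes in chromosome order around Clec7a (left) and Clec4a2 (right), with these genes and Clec12a filled, other tested genes open and untested genes as crosses at 0. Clec12a, Clec7a and Olr1 stand above a row of neighbours between -0.66 and 0.06.

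The wider families were read from 6 lists, with the 10 genes left out. These lists were written with earlier results of the same data known, so their counts are a description. Of 114 genes tested, 2 rose and 0 fell at a limma adjusted p below 0.05, against 0.561% of all genes tested that rose and 0.0754% that fell. At an unadjusted p below 0.05, 30 of the 114 were higher and 7 lower, against 9.95% and 9.77% of all genes and 19.7% in either direction. The median difference of the 114 genes was 0.19, against -0.05 over all genes. The genes that rose were Trem2 and Cd44, and leaving out CCl4 replicate 1 or CCl4 replicate 2 left 0 past the threshold, as did slide as a fixed block.

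Among C-type lectin receptors 0 of 19 tested genes passed in either direction, with a median of 0.03. After Olr1 the largest differences were 0.67 for the galactose-binding macrophage lectin Clec10a (adjusted p = 0.203) and 0.65 for Clec4a3. Of the lectins of resident liver cells, Clec4f, the Kupffer cell lectin, was at -0.35 (adjusted p = 0.247) and Mrc1, the mannose receptor, at -0.16 (adjusted p = 0.772).

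Of 19 immunoglobulin-type and Fc receptors tested, Trem2 rose, at -0.14, 0.13 and 0.42 in CCl4 rats, against -4.56, -4.53 and -3.50 in corn oil rats. TREM2 is a lipid-sensing receptor that signals through the Tyrobp adapter, and its 20.1-fold rise (4.33 ± 0.32, SE, adjusted p = 0.0106) stood beside the 1.38-fold difference of Tyrobp. The size for Trem2 depends on the background correction, as with normexp Trem2 was at 2.74 and Tyrobp at 0.5. Within the first slide Trem2 was at 4.06. Lilrb2, a relative of Lilrb4, differed by 0.97 (adjusted p = 0.0868) on its brighter probe and by 0.27 on the other. The inhibitory receptor gene Cd300lf was at 0.73 (adjusted p = 0.198) and the activating receptor gene Trem1 at 0.61 (adjusted p = 0.569). Fc receptor genes were near 0, with Fcgr1a at -0.10, Fcgr2a at -0.04, Fcgr2b at 0.02 and Fcgr3a at -0.02.

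Adapters, kinases and phosphatases that act behind these receptors had 25 of 30 tested genes above 0 and a median of 0.25, and 0 passed in either direction. Over all genes tested, 42.8% had a positive difference. The largest were 0.75 for Pik3cd, the leukocyte PI3-kinase (adjusted p = 0.0864), 0.66 for the phospholipase gene Plcg2 (adjusted p = 0.190) and 0.57 for the SRC family kinase gene Fgr (adjusted p = 0.13). Syk, the kinase that Clec7a and Tyrobp feed into, was at 0.36 (adjusted p = 0.133), and Card9, which carries the Dectin-1 signal onward, at 0.30 (adjusted p = 0.333). Fcer1g, another ITAM adapter and counted in the Fc receptor list too, was at 0.30 (adjusted p = 0.300), and Ptpn6, a phosphatase that ITIM receptors recruit, at 0.12 (adjusted p = 0.531).

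Among integrins and adhesion genes, the gene Cd44, whose product binds hyaluronan, was 4.61-fold higher by its brightest probe (2.21 ± 0.23, SE, adjusted p = 0.0252), whereas the lowest of its 6 probes gave 0.05. With probe means Cd44 was at 1.47 (adjusted p = 0.0510). The gene of the partner chain of Itgam, Itgb2, was at -0.24, 0.49 and 1.07 in CCl4 rats, against -0.16, 0.37 and -0.52 in corn oil rats. The groups overlapped (0.54 ± 0.38, SE, adjusted p = 0.456), and within the first slide Itgb2 was at -0.14. Itga4, an integrin chain of migrating leukocytes, differed by 0.82 (adjusted p = 0.0701) and Cd53 by 0.53 (adjusted p = 0.187), and Itgad, which follows Itgam and Itgax in chromosome order, was at 0.40 (adjusted p = 0.127).

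**Figure D4:**
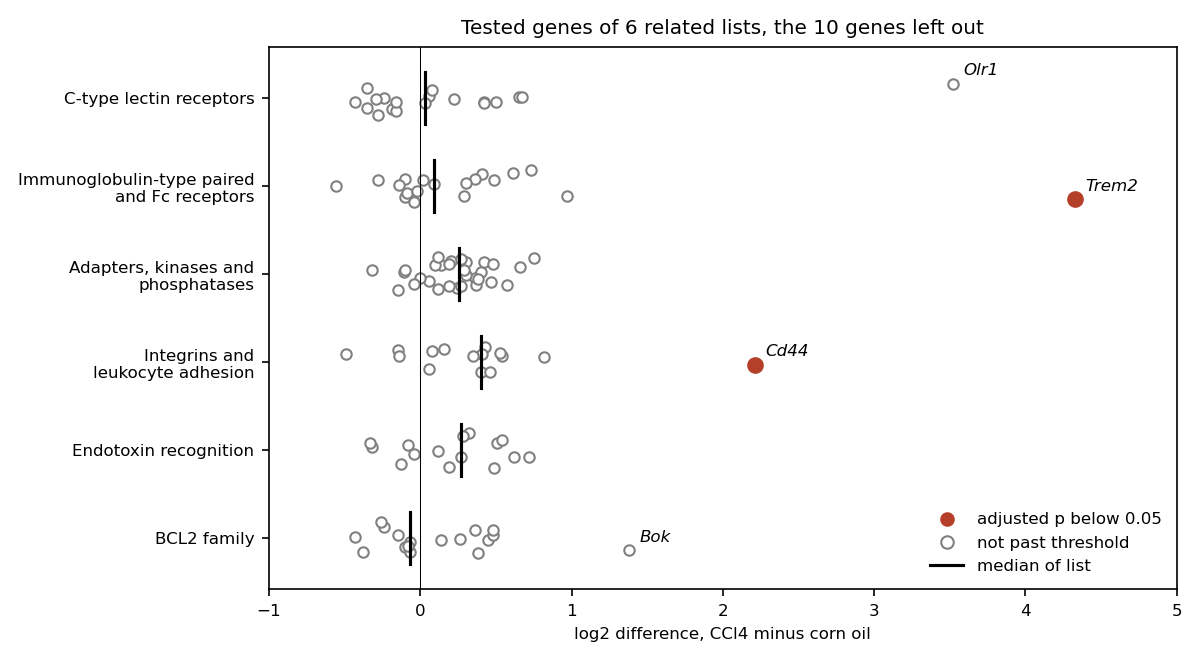
Each point is a tested gene of 1 of 6 lists on the vertical axis, placed by its log2 difference, CCl4 minus corn oil, with genes past an adjusted p of 0.05 filled in red and the median of each list as a black bar. Trem2 at 4.33 and Cd44 at 2.21 are the filled points, and Olr1 at 3.52 is the highest open one.

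Of the other genes of endotoxin recognition, 10 of 15 tested were above 0, against 42.8% of all genes tested. Their median was 0.27, and 0 passed in either direction. Lbp, whose product carries endotoxin to CD14, was at 0.72 (adjusted p = 0.0968). Tlr6 was at 0.62 (adjusted p = 0.111), the TLR4 partner gene Ly96 at 0.51 (adjusted p = 0.0977) and Tlr2 at 0.49 (adjusted p = 0.101). The signalling kinase gene Irak1 differed by 0.54 (adjusted p = 0.100), and Tlr4 itself was at -0.08 (adjusted p = 0.869). Also below 0 were Irak4 at -0.33 (adjusted p = 0.307), Myd88 at -0.32 (adjusted p = 0.398), Nfkbia at -0.13 (adjusted p = 0.899) and Traf6 at -0.04 (adjusted p = 0.853).

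In the rest of the BCL2 family, with Bcl2a1 left out, 0 of 17 tested genes passed in either direction, and the median was -0.07. Of the other survival genes, Bcl2 was at 0.38 (adjusted p = 0.306), Bcl2l1 at -0.10 (adjusted p = 0.664) and Mcl1 at -0.15 (adjusted p = 0.465). Bcl2l2 was at -0.24 on its brighter probe (adjusted p = 0.23) and 0.02 on the other. Bcl2l10 of the same family was at -0.38 (adjusted p = 0.504). Of the 17 genes 8 were above 0, against 42.8% of all genes tested. Of the death-promoting genes, Bok differed by 1.38 (adjusted p = 0.171), with 0.32 on the lowest of its 3 probes. Bbc3 and Hrk were each at 0.48 (adjusted p = 0.312 and 0.470), with -0.08 on the lowest of the 3 Hrk probes. Others were below 0, with Bik at -0.43 (adjusted p = 0.494), Bnip3 at -0.26 (adjusted p = 0.286) and Bid and Bad each at -0.07 (adjusted p = 0.834 and 0.808).

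Cell type markers moved in several directions beside these genes, and their part in the result was not tested. Of 12 monocyte and macrophage markers outside the 10 genes, 0 passed, and their summed signal, in multiples of the array's 75th percentile, was 55.2 to 58.2 in CCl4 rats and 46.1 to 55.4 in corn oil rats. Of these 12, 7 were above 0, against 42.8% of all genes tested. Those higher without overlap were 2, Laptm5 at 0.31 (adjusted p = 0.215) and Spi1 at 0.29, against 11.5% of all genes. Cd68 was at 0.13, Csf1r at 0.01, Adgre1 at -0.43 and Ly6c at 0.48 (adjusted p = 0.407 for Ly6c). The monocyte receptor gene Ccr2, well above background on 2 CCl4 arrays and 1 corn oil array, was at 0.95 (adjusted p = 0.275). Of 7 Kupffer cell markers 0 passed and 6 were below 0, while Marco, a scavenger receptor gene, was at 0.91 without overlap (adjusted p = 0.129), with sums of 130 to 165 in CCl4 and 158 to 191 in corn oil. Hepatocyte markers were all below 0 in difference, with 0 of 10 past the threshold and sums of 4180 to 4500 in CCl4 and 5030 to 5150 in corn oil, without overlap.

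Beside Blnk, defining B cell markers did not pass the threshold: Cd79b was at -0.38 (adjusted p = 0.337) and Pax5 at -0.58 (adjusted p = 0.0964). The 7 tested B and plasma cell markers summed to 2.95 to 3.62 in CCl4 and 4.22 to 4.51 in corn oil, and 0 passed. Of these 7, 1 was above 0, the B cell kinase gene Blk at 0.28 (adjusted p = 0.577). Beside Itgam, Clec7a and Clec12a, which neutrophils also express, 0 of 6 tested neutrophil markers passed and 5 were below 0. The neutrophil genes Elane, Cxcr2, Mmp8 and Ltf were not well above background on any array, and the sums were 1.85 to 4.59 in CCl4 and 3.05 to 6.49 in corn oil. Of 6 dendritic cell markers 0 passed, with sums of 4.62 to 6.61 in CCl4 and 3.08 to 3.19 in corn oil, where Itgae differed by 0.93 (adjusted p = 0.137) and Cd83 by 0.90 (adjusted p = 0.106). The other tested dendritic cell markers were at -0.28 for Clec9a, -0.11 for Zbtb46, 0.03 for Ccr7 and 0.10 for Batf3. Of 14 T and NK cell markers 1 fell, Gzma (-1.32, adjusted p = 0.0252), with sums of 5.6 to 5.93 in CCl4 and 5.63 to 7.92 in corn oil. Of 6 stellate cell markers 0 passed, with 11.7 to 16.8 in CCl4 and 11.9 to 13.3 in corn oil.

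**Figure D5:**
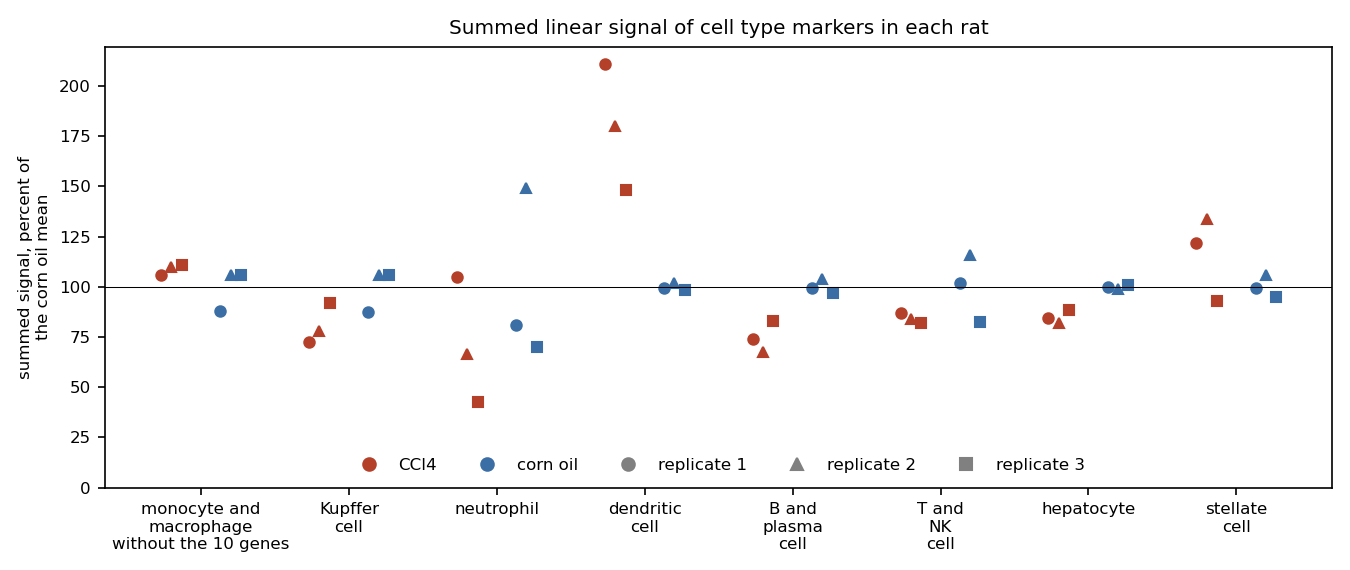
The vertical axis gives the summed linear signal of each cell type's tested markers in each rat as percent of the corn oil mean, with CCl4 rats in red at left and corn oil rats in blue at right of each list. The dendritic cell sum of CCl4 rats, with Itgae and Cd83 as its higher members, lies above that of corn oil rats, the B cell and hepatocyte sums lie below, and the monocyte and macrophage sum without the 10 genes lies close to it.

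The pattern over rats was compared with that of every other gene well above background on all 6 arrays, using Pearson's correlation over the 6 arrays with the mean of the 10 genes, each centred and scaled. Of 11093 such genes 400 (3.61%) had r above 0.9, as the arrays fall into 2 groups and any gene that differs between them scores high. The 5 highest were Copg1 (r = 0.996), a coat protein gene of vesicle transport, Pstpip1 (0.994), a cytoskeletal adapter of leukocytes, the glutamate transporter gene Slc1a6 (0.993), Pla2g7 (0.991), a lipase secreted by macrophages, and C1h16orf54 (0.990). Pla2g7 was at 0.34, 0.42 and 0.27 in CCl4 rats, against -2.49, -2.20 and -2.05 in corn oil rats, a 6.01-fold rise (limma adjusted p = 0.00383). That call for Pla2g7 was lost when CCl4 replicate 2 was left out (adjusted p = 0.0644) and when slide entered as a fixed block (adjusted p = 0.0874). With that block the difference was 2.58, the same estimate as within the first slide, and it rests on CCl4 replicate 1. Pstpip1 rose 1.81-fold (adjusted p = 0.0256), but Pstpip1 was at 0.38 with normexp (adjusted p = 0.085). Pstpip1 missed the threshold in 9 of 18 alternatives, among them slide as a fixed block (adjusted p = 0.193), the replicate block (adjusted p = 0.0886) and 5 of the 6 fits that left out an array, all but that without CCl4 replicate 3 (adjusted p = 0.0657 to 0.136). Slc1a6 rose 7.84-fold (adjusted p = 0.00133), with a difference of 2.97 that was 1.63 with normexp, and within the first slide its adjusted p was 0.0913, whereas Copg1 differed by 0.29 (adjusted p = 0.160) and C1h16orf54 by 0.52 (adjusted p = 0.0701). Among the 10 genes, correlation with the mean of the other 9 was 0.86 to 0.98 for all but Cd14, where it was -0.67. The genes were chosen on the difference between these 2 groups, so these correlations restate that choice.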

How the data were processed

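Total RNA from 6 livers was labelled with Cy3 and hybridised to 1-colour Agilent arrays. The deposited scanner files hold spot intensity, which the authors obtained with Agilent Feature Extraction (version 10.7.1.1 per the file headers), background-subtracted but not scaled between arrays. Flags for well above background, saturated and outlying spots come from the same files. A further deposited table gives a ratio proportional to the signal, with column medians of 0.103 to 0.110; its divisor, 583.3 to 676.5, was inferred from the values.

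Signals were taken to log2 after division by the array's own 75th percentile (582.6 to 675.6). Probes well above background made up 61.9% to 67.3% per array, 0 to 4 were saturated, and 3 arrays per group limit the precision. Of 61537 probes, 28206 (45.8%) matched 1 symbol through the RefSeq accession (GRCr8 table; the design names another build, rn4, so no probe or gene positions are given, and the coordinates of the printed promoter windows are those of the RefSeq table), and 26 with outlier flags were dropped. The brightest probe stood for a gene, well above background on at least 3 of 6 arrays. limma 3.58.1 (R 4.3.3, lmFit and eBayes, two-sided) tested 11939 genes with Benjamini-Hochberg adjustment at 0.05, where 76 (0.637%) passed, and the test was also run on simulated data. Replicate numbers were not treated as pairs in the main fit. One marker gene's own value is not reported here. The 10 genes and all lists were chosen with earlier results of these data known. Named list genes are those past the threshold and up to 3 further per list by size, with others given as examples chosen after their values were seen. Normexp used median spot signals in place of the planned means. Python 3.11.15 with pandas 2.3.3 made the tables.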

Additional observations from a re-analysis of the deposited data

How the results depend on the processing

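The 10 genes were chosen on these differences, and several of the 18 alternatives cannot move a single gene's value, so agreement in sign is no support. Their median difference was 0.74 with normexp correction, and 1.19 as reported. Clec7a and Itgam could not be fitted with the filter on all 6 arrays. The count of all genes past the threshold, 76 as reported, was 217 with normexp, 139 with the filter on all 6 arrays, 156 with a variance trend, 4 with slide as a fixed block and 0 within the first slide (1598 at an unadjusted p below 0.05). It was 2 to 241 when arrays were left out in turn, the lowest without CCl4 replicate 2 and the highest without CCl4 replicate 3. With the replicate number as a block it was 10. Deviations of same-numbered arrays correlated at -0.052, 0.162 and 0.019, and those of differently numbered arrays at -0.181 to 0.147. With 3 arrays per group this cannot settle whether equal numbers mark a pairing. The 2 genes of the related lists were 4 with normexp, 1 with probe means, 0 with slide as a fixed block or within the first slide and 2 with the replicate block, and 0 to 3 when arrays were left out in turn. Itgb2 turned to -0.14 with slide as a fixed block and within the first slide. These settings give the same estimate, because the second slide holds only CCl4 arrays, and that estimate rests on CCl4 replicate 1. The first slide holds 1 CCl4 array, which is assumed to vary like the corn oil arrays; the cause of the other changes was not tested. Median scaling moved the median of all genes by -0.03.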
